A study of Mus musculus with 2 samples.

Results

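The genes described here were 10 genes of the mouse circadian clock: the activator Clock, the repressors Per1, Per2, Per3, Cry1, Cry2, Bhlhe40 and Bhlhe41, the nuclear receptor Nr1d1 and the output factor Dbp. They were 10 of 21887 protein-coding genes, and they were chosen by a measured value, the width of the accessible domain at Bhlhe40, which was among the widest of these libraries, so that width is described and not tested. Their regions were the peaks in each gene body or within 50 kb of it that overlapped a peak of the other library by at least 1 bp. This gave 121 shared regions of 83732 in all, formed from 121 of 107331 peaks of replicate 1 and 122 of 98986 peaks of replicate 2.

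Chromatin accessibility was measured in 2 libraries of mouse GSCs, the cell type as the labels abbreviate it, with the genotype Stag3 KO by ATAC-seq, a method that marks open DNA with adapters carried by the Tn5 transposase. Stag3 encodes a subunit of cohesin; the labels do not say which part of it was removed. The cells came from the line named Acrosin-EGFP; beta-Actin-EGFP (AAG), were sorted as viable and AAG-positive, and entered transposition at 50000 per library. Wild-type libraries were not analysed here, so every value below describes Stag3 KO cells alone, and the labels do not say whether the replicates came from separate cultures.

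In the mammalian clock, a heterodimer of CLOCK and BMAL1 binds E-boxes and drives the Per and Cry genes, whose proteins return to the nucleus and inhibit it. BHLHE40 and BHLHE41, also called DEC1 and DEC2, compete for the same E-boxes. A further loop runs through NR1D1, the repressor REV-ERB alpha, and output factors such as DBP act through D-boxes.

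The promoter windows shown here are those of the clock genes that held an E-box or a D-box, together with the start of the long non-coding RNA 0610040F04Rik, which lay inside the Bhlhe40 domain. Each runs 5′ to 3′ from 250 bases before to 50 bases after a RefSeq transcription start, on GRCm38.p6. Capitals mark the matches to the E-box CACGTG and the D-box TTATGNAA; the window of 0610040F04Rik had neither.
Per1, chr11:69098699-69098998, plus strand: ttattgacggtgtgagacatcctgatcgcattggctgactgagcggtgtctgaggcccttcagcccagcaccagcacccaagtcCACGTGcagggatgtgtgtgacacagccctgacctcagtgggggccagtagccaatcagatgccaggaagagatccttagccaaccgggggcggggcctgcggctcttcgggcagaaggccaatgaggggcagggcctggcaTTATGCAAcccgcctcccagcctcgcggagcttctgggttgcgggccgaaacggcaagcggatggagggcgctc
Per3, chr4:151044616-151044915, minus strand: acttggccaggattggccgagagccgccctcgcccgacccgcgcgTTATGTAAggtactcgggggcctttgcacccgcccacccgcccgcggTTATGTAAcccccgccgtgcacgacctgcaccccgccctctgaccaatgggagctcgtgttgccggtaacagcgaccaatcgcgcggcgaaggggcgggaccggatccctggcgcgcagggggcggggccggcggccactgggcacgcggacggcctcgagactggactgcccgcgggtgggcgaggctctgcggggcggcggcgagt
Cry1, chr10:85185005-85185304, minus strand: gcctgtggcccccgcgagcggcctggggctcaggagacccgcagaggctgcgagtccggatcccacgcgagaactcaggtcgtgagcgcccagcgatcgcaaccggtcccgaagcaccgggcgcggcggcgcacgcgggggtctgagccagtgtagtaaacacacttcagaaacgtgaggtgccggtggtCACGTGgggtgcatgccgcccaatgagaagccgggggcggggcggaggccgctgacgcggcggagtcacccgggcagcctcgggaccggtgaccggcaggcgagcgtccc
Bhlhe41, chr6:145865371-145865670, minus strand: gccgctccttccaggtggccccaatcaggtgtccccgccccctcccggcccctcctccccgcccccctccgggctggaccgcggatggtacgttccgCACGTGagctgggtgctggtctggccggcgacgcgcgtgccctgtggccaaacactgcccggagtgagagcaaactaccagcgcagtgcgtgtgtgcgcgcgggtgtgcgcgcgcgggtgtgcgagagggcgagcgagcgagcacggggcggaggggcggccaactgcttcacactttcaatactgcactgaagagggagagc
0610040F04Rik, chr6:108660885-108661184, minus strand: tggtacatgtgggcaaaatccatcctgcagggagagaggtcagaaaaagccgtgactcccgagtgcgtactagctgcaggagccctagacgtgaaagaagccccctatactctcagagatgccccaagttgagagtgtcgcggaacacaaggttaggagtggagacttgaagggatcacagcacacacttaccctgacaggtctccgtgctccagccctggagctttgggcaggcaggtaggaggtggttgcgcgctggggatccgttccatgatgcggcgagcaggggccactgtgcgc

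The Per1 window held an E-box whose first base lay at -166 from the start and a D-box, TTATGCAA, at -24. In the Per3 window there were 2 D-boxes, TTATGTAA both times, at -205 and -158. The E-box lay at -60 in Cry1 and at -153 in Bhlhe41. All of these matches fell inside the peaks of both libraries. RefSeq windows were matched for 8 of the 10 genes, 11 windows in all, and none was used for Bhlhe40 and Per2.

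Across those 11 windows, the E-box stood in 3, against 7.15% of all 32851 RefSeq windows of 300 bp and 10.2% of those under a shared region. The D-box stood in 2, against 3.38% of all windows and 1.62% of those under a shared region. The GC box GGGCGG stood in 9 of the 11, against 35.7% of all windows and 65.2% of those under a shared region. The nuclear receptor element TAGGTCA, read by REV-ERB and ROR proteins, and the cAMP response element TGACGTCA were in 0 of the 11, against 2.61% and 1.79% of all windows. Both strands were searched, and none of the matches to the E-box and the D-box overlapped each other. A match describes letters in the window and not a bound factor.

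Nearly all promoter windows of the 8 genes with RefSeq windows were overlapped, at least in part, by a shared region. Of the 11 windows, 10 were overlapped, against 44.9% of all RefSeq windows. The exception was the Clock start at position 76303502 of chromosome 5, the innermost of 3 Clock starts. Both outer Clock windows lay under the same region. The region covered 61.7% of the Dbp window and 89% of that at the Per1 start at position 69100152. The peak summits lay upstream of the start in both libraries, at -43 and -38 bases in Bhlhe41, -72 and -53 in Nr1d1, -79 and -89 in Cry2, and -104 and -54 in Clock. They lay farther upstream in Per3, at -269 and -287, in Dbp, at -314 in both libraries, and in Cry1, at -393 and -400. Replicates placed these summits within 50 bases of each other.

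Peak strength is given in 2 ways, in the order replicate 1, then replicate 2. The fold enrichment is the authors' own value for a peak, the height of its summit over the local background, and genes are ranked by it only within a library or by the mean of both. The tags are the sequence tags stacked at the summit, recovered from the deposited fold and p-value, and their 95% exact Poisson intervals cover counting error only. Replicate 1 and replicate 2 had median folds of 8.78 and 8.73 and median tags of 40 and 41 per peak.

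All 10 genes had a shared region within 1000 bp of a gene end, against 65.8% of protein-coding genes. For Bhlhe40 those peaks belong to the domain that led to the choice. In 7 of the 10 the fold reached the median of both libraries, which 51.9% of protein-coding genes did, and the genes that did not were Bhlhe40, Bhlhe41 and, by replicate 1 alone, Nr1d1. Over the 10 genes the median of the strongest gene-end fold was 11.4, and over the 14392 protein-coding genes with such a region it was 15.5.

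**Figure D1:**
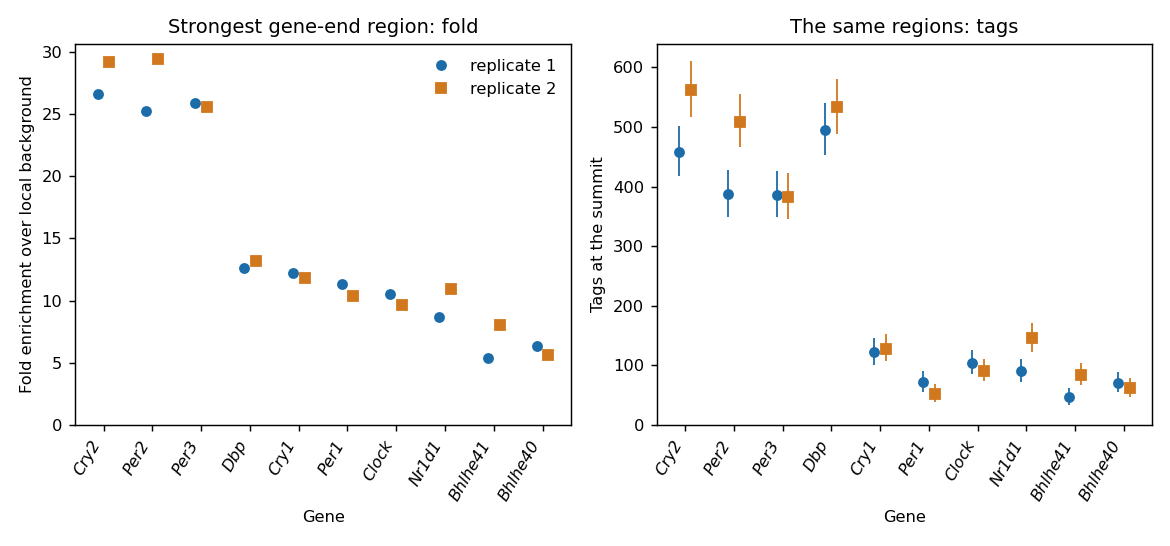
Strongest region within 1000 bp of a gene end for each of the 10 clock genes, ordered by mean fold. The left panel plots fold enrichment over the local background and the right panel tags at the summit with 95% exact Poisson intervals, circles for replicate 1 and squares for replicate 2. Cry2, Per2 and Per3 stood above 25-fold in both libraries, and Dbp joined them in tags but not in fold. Per1 is plotted by its end beside tRNA genes, which had its highest gene-end mean fold. The 5′ end of Per1, not plotted, had 333 and 434 tags.

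Clock encodes the bHLH-PAS partner of BMAL1. Its gene-end region, at chr5:76304146-76305395, spanned 1250 bp, with folds of 10.5 and 9.62 and 104 and 91 tags. The mean fold was 10.1 ± 0.620 (SD, n = 2). It covered the windows of both outer Clock starts. The 9 shared regions of the Clock window included 2 above 20-fold. The first lay inside another gene at chr5:76322588-76322977, with folds of 31.7 and 30.3. The other lay at the end of Tmem165, with folds of 22.4 and 25.7. By fold the first of these, 16985 bp beyond the gene, was the strongest region of the window. By tags it was that at Tmem165, with 339 and 379 against 239 and 164.

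Among the Period genes, whose products form the inhibitory complex with the cryptochromes, Per2 and Per3 had strong gene-end regions and Per1 had weaker folds. At Per2, chr1:91459161-91459824, the folds were 25.3 and 29.4, with 387 and 509 tags. At Per3, chr4:151044530-151045150, they were 25.8 and 25.5, with 386 and 383 tags. The mean folds of Per2, 27.3 ± 2.94, and Per3, 25.7 ± 0.214 (SD, n = 2 each), differed by less than the spread of Per2 between its libraries. The tag intervals of Per2 did not overlap between libraries, at 349 to 428 in replicate 1 and 466 to 555 in replicate 2.

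Per2 had 1 region at an end, and Per3 had 1 at an end and 3 inside it. Per1 had 4 regions on the gene or at its ends, 2 at its ends and 2 inside it. The lower-coordinate end, which is the 5′ end of the gene model, had folds of 10.2 and 11.5 at chr11:69094664-69095362. The start whose window is printed above had folds of 7.96 and 6.39, and the start at position 69100152 had folds of 4.37 and 4.83. These folds stood on many tags, 333 and 434 at the 5′ end and 242 and 235 at the printed start. At the 5′ end the tag intervals did not overlap between libraries, at 298 to 371 in replicate 1 and 394 to 477 in replicate 2. At the printed start they overlapped. The local background was 31.8 and 36.8 tags at the 5′ end, so Per1 ranked higher in tags than in fold. The opposite end of Per1, chr11:69110307-69111300, beside tRNA genes, had folds of 11.3 and 10.4 on 72 and 52 tags. Its fold was higher than that of the 5′ end in replicate 1 and lower in replicate 2, and its tags were lower in both.

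The cryptochromes Cry1 and Cry2, the main inhibitors of CLOCK and BMAL1, also differed. At Cry2, chr2:92433619-92434416, the folds were 26.6 and 29.2 and the tags 458 and 562. The mean of 27.9 ± 1.87 (SD, n = 2) was the highest gene-end fold of the 10 genes, but Per2 lay within its spread. The tag intervals of Cry2 did not overlap between libraries, at 417 to 502 in replicate 1 and 516 to 610 in replicate 2. At Cry1, chr10:85184933-85185663, the folds were 12.2 and 11.8 and the tags 122 and 128, so both libraries of Cry1 lay below both libraries of Cry2.

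Cry1 had 4 regions above 20-fold, 3 around the gene and 1 inside it. The highest mean fold of all 121 regions was at chr10:85127865-85128299, with folds of 32.5 and 35.7, and lay at the end of Mterf2, 3401 bp from Cry1. A pair of regions between genes, 35872 and 41894 bp beyond the 5′ end of Cry1, had folds of 31.5 and 31.6, and of 29.2 and 29.3. Inside the gene, the region at chr10:85158033-85158499 had folds of 25.7 and 21.6. Each of these 4 exceeded the promoter of Cry1 in fold in both libraries, but the region inside the gene had fewer tags than the promoter, 105 and 82.

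Nr1d1, the heme-binding repressor of Bmal1 transcription, had folds of 8.72 and 10.9 at its 5′ end, chr11:98775174-98775661, and 90 and 146 tags. The tag intervals, 72.4 to 111 in replicate 1 and 123 to 172 in replicate 2, did not overlap. A region inside the gene, chr11:98773638-98774300, had folds of 12.1 and 10.1 and 126 and 135 tags. The highest mean fold near Nr1d1 was at the end of Med24, with folds of 23.6 and 26.6.

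Dbp, a PAR bZIP activator that reads D-boxes, had folds of 12.6 and 13.2 at its 5′ end, chr7:45704686-45705181. Its tags, 495 and 533, exceeded those of 99.7% and 99.5% of peaks, while its local background, 38.2 and 39.6 tags, exceeded that of 99.9% of peaks in each library. Among the strongest gene-end regions by fold, Dbp therefore stood with Cry2, Per2 and Per3 in tags and with Cry1 in fold. The 5′ end of Per1, at 10.2- and 11.5-fold, also had many tags, 333 and 434. The tag intervals of Dbp overlapped between libraries, at 452 to 541 in replicate 1 and 489 to 580 in replicate 2. The region covered 61.7% of the Dbp promoter window and also had Car11 as a neighbour. The part of each gene in these tags was not tested.

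The E-box repressors Bhlhe40 and Bhlhe41 had the lowest gene-end folds of the 10. At Bhlhe41, chr6:145865278-145865854, the folds were 5.39 and 8.02, and the tags 47 and 84. The mean fold, 6.71 ± 1.86, overlapped that of Bhlhe40, 6.01 ± 0.522 (SD, n = 2 each). The tag intervals of Bhlhe41, 34.5 to 62.5 in replicate 1 and 67.002 to 104 in replicate 2, did not overlap. A region of 24.0- and 27.9-fold lay 44998 bp beyond the 5′ end of Bhlhe41, between genes, and was the strongest of its 8 regions.

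Bhlhe40 encodes a transcriptional repressor that responds to serum, hypoxia and hormones as well as to the clock. Its model, chr6:108660629-108666925, is short, at 6297 bp, and no other protein-coding gene lay within 50 kb of it. Of its 7 shared regions, 5 stood close together, from -2022 to 1186 bp of the lower-coordinate end of the model. Their tags in replicate 1, from low to high coordinate, were 35, 47, 71, 53 and 66. In replicate 2 they were 32, 60, 62, 61 and 52. The folds ran from 3.19 to 6.38 in replicate 1 and from 2.97 to 5.65 in replicate 2, below the median of each library at every peak.

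**Figure D2:**
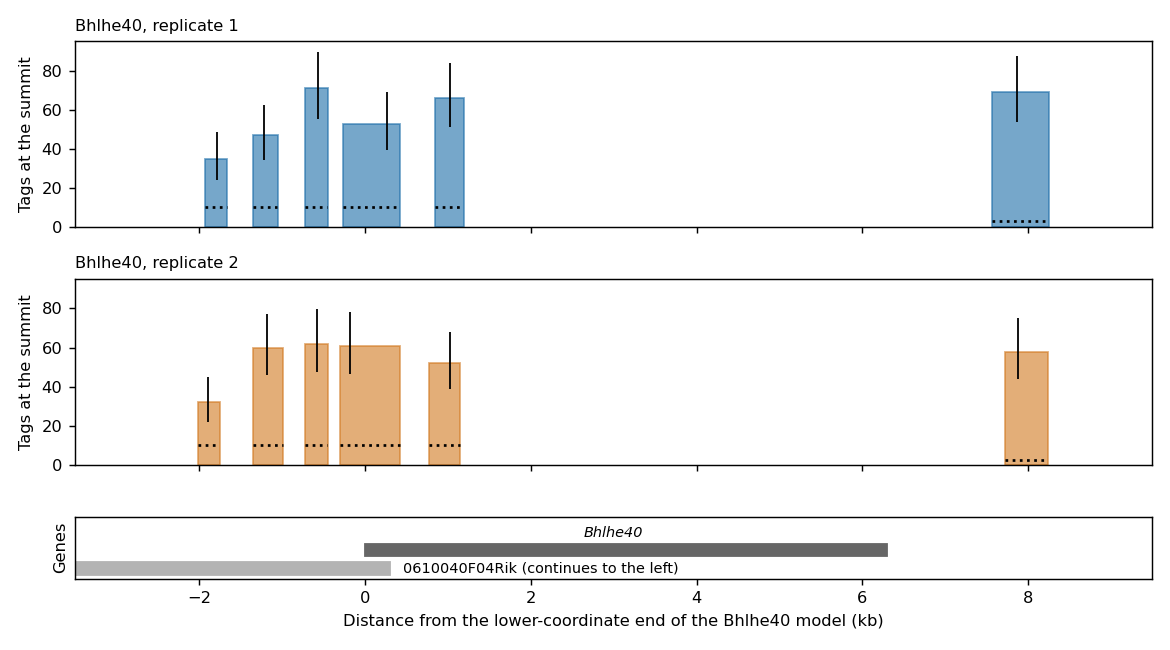
Peaks around Bhlhe40 in each library, against distance from the lower-coordinate end of its model in kb. Each block spans a peak, its height is the tags at the summit, vertical lines are 95% exact Poisson intervals at the summit position, and the dotted line is the local background. The cluster of 5 peaks at the gene end recurred in both libraries at 32 to 71 tags over a background near 10, and the peak beyond the gene had 69 and 58 tags over a background near 3.

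These 5 low peaks formed the wide domain. When peaks of a library at most 500 bp apart were joined, the domain spanned 3116 bp in replicate 1 and 3162 bp in replicate 2, a mean of 3139 ± 32.5 bp (SD, n = 2). Peaks covered 59.6% and 62.9% of it. It ranked 2 of 93742 domains in replicate 1 and 2 of 85561 in replicate 2. The joined span of both libraries, chr6:108658607-108661815, was 3209 bp and ranked 3 of 73954 shared domains, behind those at Cdk6, 3571 bp, and at LOC108167694 and Gm20783, 3554 bp. Next below it came Jade1, at 3181 and 3151 bp, and Jph4, at 3138 bp. A span of both libraries can exceed the domain in either. At Cdk6 the domain was 1844 bp in replicate 1 and 2426 bp in replicate 2, and at Jph4 2091 and 2470 bp. At LOC108167694 and Gm20783 it was 3531 and 3504 bp. Both Jade1 spans hold the same replicate 2 domain of 3151 bp, combined with replicate 1 domains of 1818 and 521 bp.

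The width rests on the joining. With peaks left as deposited, 0 of the 10 genes had a shared region of 2000 bp or wider, against 0.0777% of protein-coding genes and 0.0107% of all shared regions. The widest shared region near Bhlhe40 was 885 bp, at the 56.0 percentile of protein-coding genes, and it was another region, 42492 bp beyond the gene. The widest single region at the gene end was 719 bp, rank 8557 of 21887 genes, a width it shared with 1700010I14Rik, Abhd17a, Acrbp, Bub3, Cdyl2 and Colgalt1. As a description of the value that led to the choice, 7 of 73954 shared domains, 0.00947%, had at least 5 peaks in each library, and 789, 1.07%, had at least 3.

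The local background at the Bhlhe40 domain was 10.3 tags in replicate 1 and 10.1 to 10.2 tags in replicate 2, at about the 90 and 87 percentiles. The tags of its strongest peak, 71 and 62, were at the 70.4 and 64.6 percentiles, whereas its folds, 6.38 and 5.65, were at the 33.3 and 25.5 percentiles. This end of Bhlhe40 was therefore above the median in tags and below it in fold. At 1269 bp beyond the other gene end, chr6:108668194-108668877 had a similar number of tags, 69 and 58, over a background of 3.04 and 2.68, and so a fold of 17.3 and 16.0. The region 42492 bp beyond the gene had a replicate 1 peak of 16.6-fold, which overlapped 2 replicate 2 peaks of 7.75- and 17.7-fold, so no order in fold is read between these 2 regions.

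The long non-coding RNA 0610040F04Rik runs on the minus strand from position 108660934 to position 108577036 of chromosome 6 and overlaps the Bhlhe40 model by 306 bp. Its start lay 305 bp inside the Bhlhe40 model, within the fourth peak of the domain, and 162 of the 300 bases of the printed window lay under peaks of both libraries. Its other RefSeq start, at -37462 bp from the same Bhlhe40 end, was not under a shared region. The first 3 of the 5 peaks lay inside the model of this RNA and outside that of Bhlhe40, the fourth covered part of both, and the fifth lay inside Bhlhe40 alone. The openings of the Bhlhe40 end and of this RNA cannot be told apart from peak positions.

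Domains at the other 9 genes were narrower. The widest was 1827 bp at the Clock promoter, with 1827 and 1493 bp in the libraries. At Cry2, Dbp, Per2, Per3, Per1 and Nr1d1 the widest domain, between 1351 and 1746 bp, lay near the gene but not on its own promoter, for example at Slc35c1 near Cry2 and at Erfe near Per2. Bhlhe41 and Cry1 had 929 bp each, inside the gene at Bhlhe41 and at Mterf2 near Cry1, so neither lay on its own promoter. Bhlhe40 was the 1 gene of 10 with a domain of 2000 bp or more, against 3.85% of protein-coding genes, and its domain reached the gene itself, which held for 1.71% of them. Both counts were fixed by the choice of Bhlhe40.

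**Figure D3:**
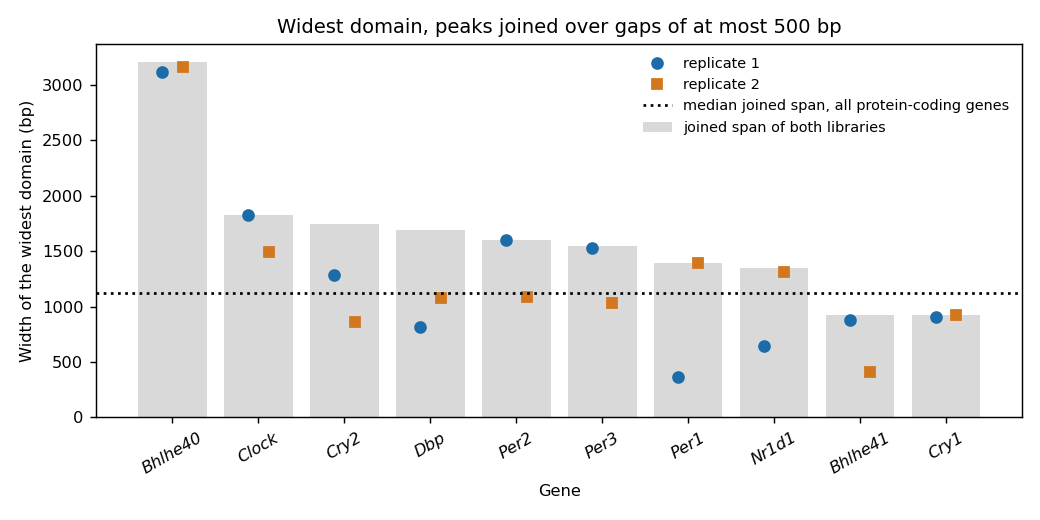
Width in bp of the widest accessible domain in the body or within 50 kb of each clock gene, after joining peaks at most 500 bp apart. Bars are the joined span of both libraries, circles replicate 1, squares replicate 2, and the dotted line is the median over all protein-coding genes, 1125 bp. Bhlhe40 stood at 3209 bp and the others between 929 and 1827 bp.

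The neighbourhoods of the 10 genes varied from sparse to crowded. Per1 had 23 shared regions, or 20.02 per 100 kb, at the 99.7 percentile of protein-coding genes. Dbp and Nr1d1 followed with 16 each, 15.2 and 14.9 per 100 kb. Clock had the fewest per 100 kb, 4.60 from 9 regions, and Bhlhe40 the fewest in number, 7. The median was 10 regions over the 10 genes and 7 over all protein-coding genes, and 7.95 against 5.35 per 100 kb.

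**Figure D4:**
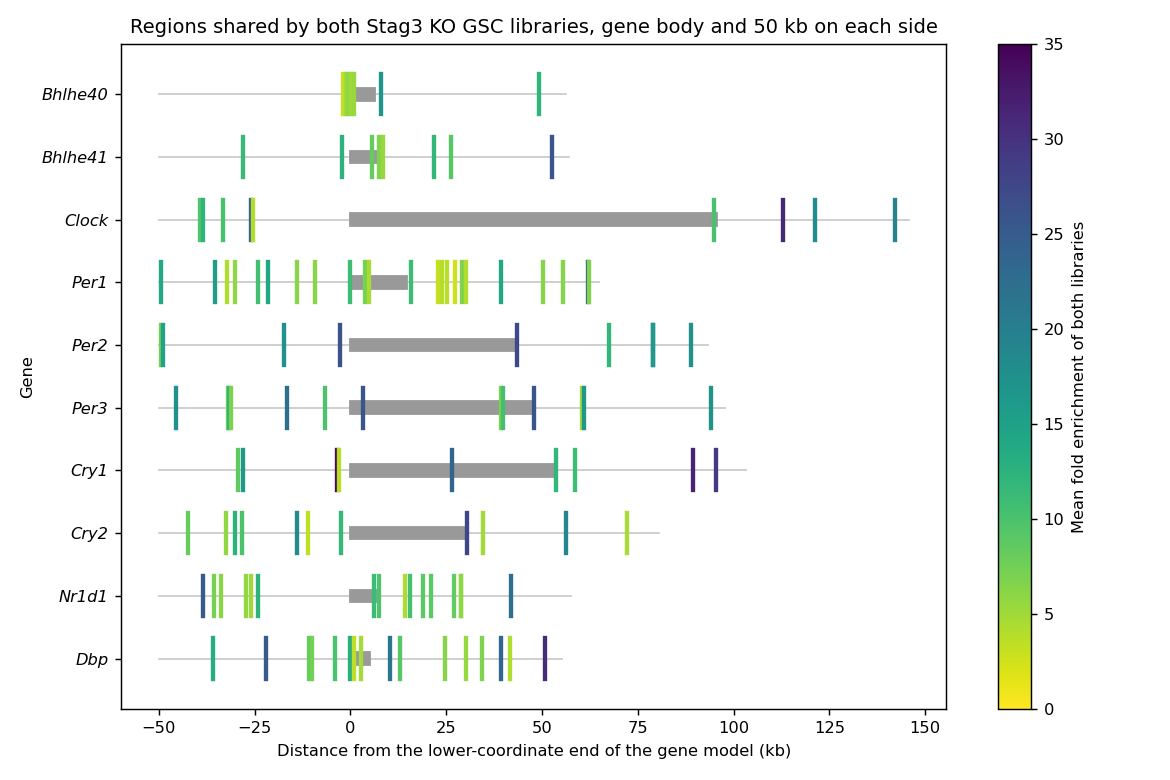
Shared regions of both libraries around each clock gene, at their distance in kb from the lower-coordinate end of the gene model. Grey boxes are gene models, thin lines the 50 kb on each side, and colour is the mean fold of both libraries. The 5 Bhlhe40 peaks form a block of low fold at the gene end, Per1 has the densest row with 23 regions, and the strongest mark, at 34.1-fold, is beside Cry1.

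Most regions in these windows lay at or inside other genes. Of the 121, 41 (33.9%) lay at the end of another protein-coding gene, 15 (12.4%) at an end of the clock gene itself, 9 (7.44%) inside it, 22 (18.2%) inside another gene and 26 (21.5%) between genes. The remaining regions were 6 at ends of other genes and 2 at tRNA genes. These shares were not set against those around other genes, so whether they are particular to the clock genes was not tested. The windows held 9 other protein-coding genes at Dbp, 7 at Per1, 6 at Cry2, 5 at Per3, 4 each at Per2 and Nr1d1, 3 each at Clock and Cry1, 1 at Bhlhe41 and 0 at Bhlhe40. The order of these numbers was not that of the regions, since Nr1d1 had as many regions as Dbp, 16, and Cry2 had 11. At the Per1 locus 10 regions lay at ends of other protein-coding genes, among them Aurkb, Borcs6, Tmem107, Hes7, Aloxe3 and Alox12b. A region at a tRNA gene, 12344 bp beyond Per1, had the lowest mean fold of all 121, with folds of 2.45 and 2.90.

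**Figure D5:**
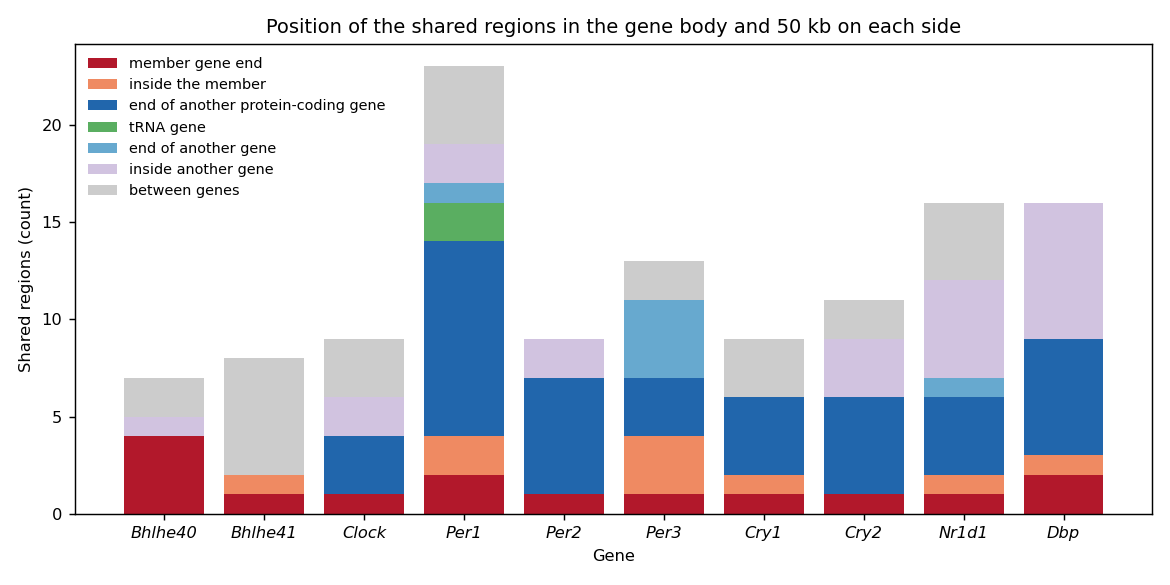
Number of shared regions in the body and 50 kb on each side of each clock gene, split by position; in the legend, member means the clock gene itself. Per1 has 10 of its 23 regions at ends of other protein-coding genes, Dbp has 6 at ends of other protein-coding genes and 7 inside other genes, and Bhlhe40 has 4 of 7 at its own end.

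Strong regions, above a mean of 20-fold, were 21 of the 121, near the 18.4% found over all shared regions. Of the 21, 9 lay at ends of other protein-coding genes and 3 at ends of the clock genes, those of Cry2, Per2 and Per3. Cry1 and Dbp had 4 each, Per2 and Per3 had 3 each, and Bhlhe40 had 0. Inside Per3, chr4:151000060-151000547 had folds of 25.4 and 26.3, close to those of the Per3 promoter, on fewer tags, 113 and 101. Near Per2, the end of Hes6, a gene of the bHLH family, had folds of 26.1 and 26.2.

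The regions of the clock genes stood on a higher background than the average region. Their median local background was 7.96 and 9.12 tags, against 3.64 and 3.60 over all shared regions. Their median tags were 76 and 84, against 52 and 51, and their median mean fold was 9.97, against 10.6. These medians pool the regions of all the genes, with 23 from Per1 and 16 each from Dbp and Nr1d1, and need not hold for each gene. The part of the background in the lower folds was not tested beyond these values.

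The 2 libraries were also set against each other at these genes. Of the peaks in the windows, 121 of 143 in replicate 1 (84.6%) and 122 of 137 in replicate 2 (89.1%) were shared, against 78% and 84.9% of all peaks. In the 114 regions with summits at most 100 bp apart, replicate 2 had 16184 tags and replicate 1 had 14491. The ratio was 1.12, with a 95% interval of 1.09 to 1.14, against 1.04 over 77463 regions. This interval covers counting error only and not the scatter between regions, whose chi-square per region was 2.89, against 3.93 over all. No difference from 1.04 is therefore read from it. The 95% tag intervals failed to overlap in 17 of the 114 regions (14.9%), against 14.3% of all. Of those 17, 15 (88.2%) were higher in replicate 2, against 48.8% of such regions over all. These regions share windows and are not independent. The largest ratio between libraries was near Dbp, at chr7:45694025-45694576 near ends of Sec1 and Ntn5, with 13 tags in replicate 1 and 56 in replicate 2.

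At the 50 kb limit, the farthest region inside it was near Per2, 49313 bp away, with folds of 7.60 and 7.08. The nearest outside it was near Dbp, 50128 bp away, with folds of 11.8 and 13.7.

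Other genes of the clock pathway were counted in the same way. Of 29 other clock genes, 28 (96.6%) had a shared region within 1000 bp of an end, against 65.8% of protein-coding genes, with a median fold of 13.1. By role, these were 2 of 3 activators, 1 of 1 repressor, 4 of 4 nuclear receptors, 3 of 3 bZIP output factors, 9 of 9 kinases, ligases and proteases, and 9 of 9 cofactors. Among the highest folds were those of Btrc (25.4 and 30.5), a ubiquitin ligase subunit that targets PER proteins, Usp2 (25.6 and 27.5), a deubiquitinase, and Fbxl21 (23.2 and 26.3), a ligase subunit that targets cryptochromes. The exception was Arntl, which encodes BMAL1, the partner of CLOCK: no shared region reached its model ends. However, a region 28526 bp inside, chr7:113206997-113207636, had folds of 20.7 and 25.2. The measure uses model ends only, so whether this region lies at an inner start of Arntl was not tested.

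Identity of the cells was checked against marker genes by the same gene-end measure. Regions were present at 7 of 7 markers of undifferentiated spermatogonia and 3 of 3 of germ cells, but also at 3 of 4 of Sertoli cells, 3 of 4 of fibroblast feeder cells and 2 of 3 of blood, with none at Gata4, Dcn and Ptprc. With 65.8% of all protein-coding genes open at an end, this measure gave regions for every cell type listed, and the part of other cells in the values above was not tested.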

How the data were processed

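ATAC-seq peak lists of 2 Stag3 KO GSC libraries, 1 group, were analysed; peaks had been called per library. Tools listed in the submitters' processing notes were MACS2 2.1.1, Bowtie2 2.3.4.1, deepTools 3.5.0, Trim Galore, bedtools 2.29.2 and Picard 2.18.23, and the builds were GRCm38.p3 and mm10. Settings, including duplicate removal and any shift of reads for Tn5, which moves summits and sets which sites are called, are not given in the sources used here. Per the labels' protocols, PCR ran for 8 cycles.

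The deposited fold is the authors' ratio of summit height to local background. Deposited −log10 p-values and −log10 q-values come from the authors' peak caller. The deposited score was not used. Total read depth is unknown. Tags were recovered by taking the fold as (tags + 1)/(background + 1) and p as the Poisson tail above the tags. A whole number solved both for 100% of peaks, within a relative tolerance of 1e-05 plus 0.0001. Recovery and joining were tested on simulated data. PCR copies are not independent molecules, so intervals cover counting error only.

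For each shared region, a replicate 1 peak was combined with whichever replicate 2 peak overlapped it most. Regions could therefore overlap, and the 121 formed 119 after merging. Domains joined peaks of a library at most 500 bp apart, a distance chosen after seeing the data. Genes, starts and promoter windows came from RefSeq tables on GRCm38.p6, which shares chromosome coordinates with the build of the peaks. The table gave no strand for Bhlhe40 and Per2. The genes, lists and motifs were chosen with earlier results of these data known, and no test was made. Named genes were the 10 members, the 4 other clock genes with the highest gene-end fold and any without such a region, genes tied with Bhlhe40 in gene-end width, neighbours of named regions, and genes at domains of adjacent rank, the last added after seeing the data. A gene that this rule names is not reported here. Alternatives varied the overlap, threshold, window, joining distance and library. Python 3.11.15, numpy 2.4.6, pandas 2.3.3, scipy 1.17.1 and matplotlib 3.10.9 were used.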

Additional observations from a re-analysis of the deposited data

How the results depend on the processing

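No paired analysis was possible because there was 1 group. The 121 shared regions became 57 with the 50000 strongest peaks of each library, 61 with peaks at or above the median fold, 44 within 10 kb and 203 within 100 kb; either library alone gave 137 to 143 peaks. The median per gene, 10, became 5.5, 6.5, 4.5 and 16 under the same 4 settings, and 12 to 13.5 with either library alone. The widest Bhlhe40 region, 885 bp, became 719 bp when peaks had to overlap by 50%, 683 bp when the overlap was taken as the width, and 719 to 885 bp with either library alone. Joining peaks over gaps of at most 300, 500 or 1000 bp, chosen after seeing the data, made it 1766, 3209 and 3209 bp, and genes with a region of 2000 bp or wider, 0 without joining, became 1 at 500 bp and 4 at 1000 bp. The Bhlhe40 domain, 3209 bp, was 3116 to 3162 bp with either library alone and 1766 bp at gaps of at most 300 bp; no peak of it was left among the 50000 strongest or above the median fold, so those settings gave no value. The median widest region, 897.5 bp, was 819.5 to 855.5 bp with either library alone, 782 bp within 10 kb, 954 bp within 100 kb, 805 bp with the overlap as the width, 959 bp with peaks closer than 100 bp joined, and 1017.5, 1574.5 and 1911 bp at gaps of at most 300, 500 and 1000 bp. The cause of these moves was not tested beyond the settings themselves. The 10 genes with a gene-end region became 7 under both stricter fold settings. In all, 68 of 98 alternative values were labelled the same. Counts had to stay within 1.5 times the main value, and the tag ratio within its interval of counting error. All other values had to stay within the replicate spread. An unchanged value also passed, as did the many counts of 0 genes with a region of 2000 bp or wider. The 68 include the summit fold at the widest Bhlhe40 region, 12.2, which ran from 5.18 to 17.1 across settings. Its values in replicate 2 and replicate 1 alone, 5.58 and 16.6, came from different regions, of 719 and 885 bp. That spread is too wide for its label to show stability. Depth limits low peaks: the lowest had 9 tags, and 2 libraries give little hold on the spread.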
